A study of Mus musculus with 16 samples.

Results

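The transcripts of 8 pluripotency genes, Pou5f1, Nanog, Sox2, Utf1, Dppa2, Dppa4, Sall4 and Lin28a, were followed from undifferentiated mouse embryonic stem cells (mESCs) into 7 sorted populations of endoderm and mesoderm differentiation. The genes were taken from a fixed list by symbol, and each was read from its single-symbol probe set of highest mean, so that 8 of the 18716 genes that could be named on the arrays were used and all 8 were measured. All cells came from a dual-reporter mESC line in which GFP disrupts 1 allele of T (TGFP/+) and tagRFP is fused to the product of 1 allele of Foxa2 (Foxa2tagRFP/+). The labels name the line as E14.1 on a 129/Ola background, whereas the methods of the study name it as G4, so that the background is not settled. It was derived from a drug-resistant clone, and the same alleles are carried by the undifferentiated controls and by every sorted group. Undifferentiated mESCs (day 0, labelled mESC) were kept on feeders with leukemia inhibitory factor (LIF) and were not sorted. For endoderm, cells were plated on Wnt3a-producing feeders in a defined medium with activin A at 12 ng/ml, and for mesoderm this medium received activin A at 3 ng/ml together with Bmp4 at 7.5 ng/ml. Foxa2-tagRFP-positive, T-GFP-negative cells were sorted as CD24low (F+CD24low, named definitive endoderm progenitors by the study) or CD24high (F+CD24high, definitive endoderm) at days 2 and 4 (D2 and D4). Foxa2-tagRFP-negative, T-GFP-positive cells were sorted as CD24low (T+CD24low, mesoderm progenitors) at D2 and D4 and as CD24-negative (T+CD24neg, mesoderm) at D4. Each of the 8 groups had 2 arrays from samples labelled as biological replicates. Medium and reporter gate changed together, so their parts cannot be told apart, and in bulk RNA fewer expressing cells and less RNA per cell cannot be told apart either.

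Pou5f1 (Oct4), Nanog and Sox2 encode the transcription factors at the centre of the pluripotency network, in which Pou5f1 and Sox2 bind next to each other at composite DNA elements and all 3 factors occupy many of the same enhancers. Utf1 encodes a chromatin-associated protein of undifferentiated cells, Dppa2 and Dppa4 encode partner proteins with a SAP domain that bind chromatin together, and Sall4 encodes a zinc finger factor that interacts with Pou5f1 and Nanog. Lin28a encodes an RNA-binding protein that blocks maturation of let-7 microRNAs. In the embryo, Pou5f1 and Nanog are known to be present in the posterior epiblast at the primitive streak, whereas Sox2 becomes restricted to the anterior, neural side, and Sall4 and Lin28a persist beyond the epiblast.

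Among the promoters of these genes that were searched, the letters of the composite element were found in that of Nanog alone. RefSeq promoter windows (GRCm38.p6, 250 bases before to 50 after a transcription start) were given for 5 of the 8 genes, in 7 windows. They were searched on both strands for the octamer ATGCAAAT, its core ATGCAAA, the Sox core CATTGT, and a composite of TTGT and ATGCAAA with 1 free base between them, so that the octamer and the composite each contain the octamer core. Nanog and Sox2 are shown here as the genes whose windows held the octamer core. The capitals mark the composite in Nanog, printed on the plus strand of chr6:122707239-122707488 and matched on the minus strand from 75 bases before the start, and the octamer core in Sox2, chr3:34649745-34649994 on the plus strand, matched 99 bases before the start.
Nanog: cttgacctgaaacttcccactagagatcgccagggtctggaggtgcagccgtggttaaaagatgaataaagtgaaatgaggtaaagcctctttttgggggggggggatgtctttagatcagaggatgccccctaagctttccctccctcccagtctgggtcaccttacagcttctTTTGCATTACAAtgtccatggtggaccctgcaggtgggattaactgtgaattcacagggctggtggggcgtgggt
Sox2: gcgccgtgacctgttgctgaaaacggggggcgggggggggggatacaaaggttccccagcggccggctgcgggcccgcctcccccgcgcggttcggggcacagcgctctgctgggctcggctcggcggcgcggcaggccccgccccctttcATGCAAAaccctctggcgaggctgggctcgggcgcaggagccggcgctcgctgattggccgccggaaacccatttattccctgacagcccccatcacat
The composite was found in 12 of 32851 promoter windows (0.0365%), the octamer in 570 (1.74%), the octamer core in 1520 (4.63%) and the Sox core in 4129 (12.6%). In the Nanog windows the composite match overlapped a match of the octamer core and one of the Sox core. The second of the 2 Pou5f1 windows and the Lin28a window held the Sox core alone, and the other Pou5f1 window and that of Utf1 held none of these letters. A match is a description of the sequence, not evidence of a bound site.

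On the 16 arrays the median log2 value of all 35556 probe sets lay between 7.42 and 7.49, and the 2 arrays of a group correlated at r = 0.989 to 0.995 over these probe sets. A log2 value here is the intensity of a probe set after robust multichip average (RMA) normalization, and a difference of 1 is a fold of 2. A gene was called between groups when the absolute log2 fold change exceeded 1 and the Benjamini-Hochberg adjusted p of limma, over all 32000 probe sets, was below 0.05. Errors of log2 fold changes are standard errors (SE) of the same model with the spread pooled over the 8 groups, 2 arrays each. Foxa2 and CD24 were used for sorting and are no finding. Foxa2 stood at 10.0 to 11.4 on F+ arrays and 7.3 to 8.3 on all others. Cd24a RNA was higher in F+CD24high than in F+CD24low by 0.62 at D2 and 0.46 at D4, neither called. In T+CD24neg D4 it was called lower than in T+CD24low D4 (-1.31). The CD24low gates were not equal in this RNA at D4, where F+CD24low read 0.55 above T+CD24low (adjusted p = 0.0137 in limma). Of 10 endoderm markers, 10 were called higher than in mESC in F+CD24high at D2 and at D4 (2.25% and 3.57% of probe sets called higher), and of 10 mesoderm markers 10 in T+CD24neg (2.23%). Endoderm markers were also called higher outside the Foxa2+ gates, 4 of 10 in T+CD24low D2 (1.49% of probe sets), 6 in T+CD24low D4 (2.26%) and 6 in T+CD24neg D4 (2.23%). In F+CD24low, 6 were called higher at D2 (1.18%) and 8 at D4 (1.80%). Their summed linear level was 13104 and 13133 on the T+CD24neg arrays, 12426 and 13619 in F+CD24low D4, and 39965 to 48319 in F+CD24high.

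Fibroblast genes read higher on the mESC arrays than on the sorted ones. Of 18 fibroblast genes, 11 to 15 were called lower in each sorted group than in mESC and none higher, against 2.47% to 5.19% of probe sets called lower. Among them was Postn, a matrix protein, at -5.09 to -4.97. The summed linear level of the list was 20781 and 28275 on the mESC arrays and 3012 to 5331 on the 14 sorted arrays, where Dcn, Postn and Ccl2 were all lower. All 8 pluripotency genes were a little higher on mESC replicate 2, the array with the lower fibroblast sum, than on replicate 1. The part of fibroblast RNA in the comparisons with mESC was not tested, and comparisons among sorted groups do not use the mESC arrays.

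**Figure D1:**
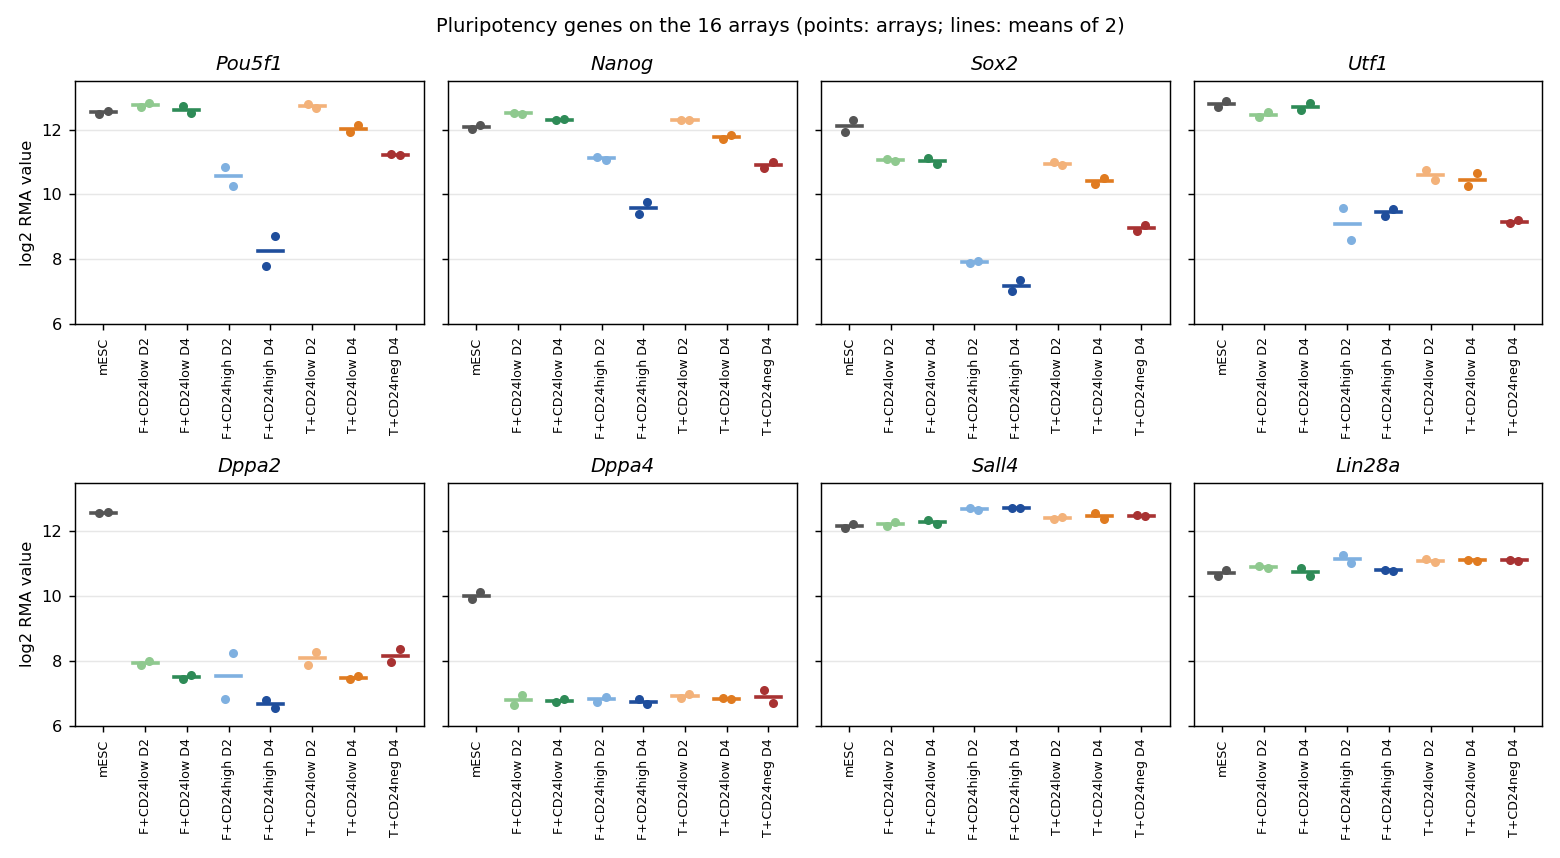
Log2 RMA values of the 8 genes (y axes) in the 8 groups (x axes), with 1 point per array and a line at the mean of the 2 arrays. Dppa2 and Dppa4 stood high only on the mESC arrays, Pou5f1, Nanog, Sox2 and Utf1 were lowest in F+CD24high or T+CD24neg cells, and Sall4 stayed between 12.11 and 12.73 and Lin28a between 10.62 and 11.26 on all arrays.

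Compared with mESC, the genes fell in different numbers and sets in the 7 sorted groups, and none was called higher. In F+CD24low D2, 3 of 8 genes were called, all lower (Sox2, Dppa2 and Dppa4), against 2.47% of all probe sets called lower. In F+CD24low D4 the same 3 of 8 were called lower, against 2.71%. In T+CD24low D2 and D4, 4 of 8 were called lower, against 2.61% and 3.20%, with Utf1 in addition. In F+CD24high D2, 5 of 8 were called lower, against 4.40%, with Pou5f1 as the fifth. In F+CD24high D4 and in T+CD24neg D4, 6 of 8 were called lower, against 5.19% and 3.43%, Nanog being the sixth. The median log2 fold change of the 8 genes was -0.03 in F+CD24low D4 and -3.30 in F+CD24high D4, where the median of all probe sets was 0.05 and 0.07. All 7 comparisons share the same 2 mESC arrays.

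**Figure D2:**
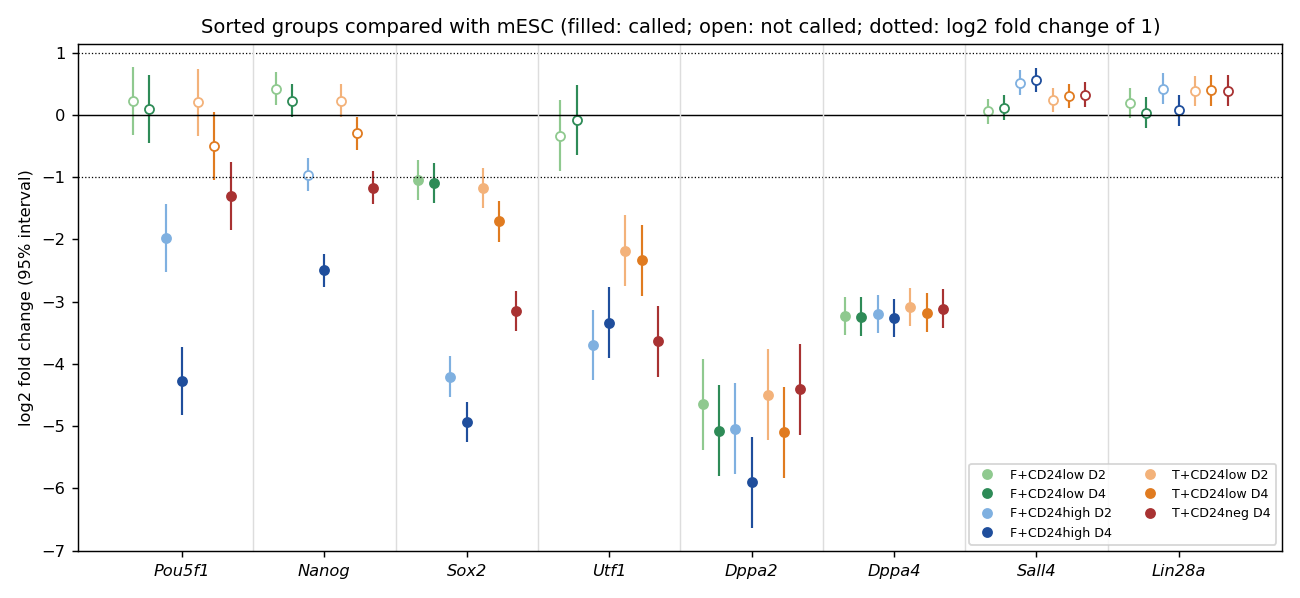
Log2 fold change of each gene (x axis, 8 genes) in the 7 sorted groups compared with mESC, with 95% intervals from limma (y axis). Filled points were called and open points were not. Dppa4 lay between -3.26 and -3.08 in every group, whereas Pou5f1 ranged from 0.22 in F+CD24low D2 to -4.28 in F+CD24high D4.

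Dppa2 and Dppa4 fell in every sorted group, at D2 already and in all gates. Dppa2 stood at 12.56 and 12.59 on the mESC arrays and between 6.56 and 8.37 on the 14 sorted arrays. Dppa4 stood at 9.91 and 10.11 in mESC and between 6.63 and 7.09 in the sorted groups. For both genes no sorted array came near the mESC arrays, and those of Dppa4 all lay below the median of the probe sets.

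The log2 fold changes of Dppa2 ran from -4.41 ± 0.33 (T+CD24neg D4) to -5.90 ± 0.33 (F+CD24high D4), a fold of 21.3 to 59.8, with adjusted p at most 3.67e-06. Those of Dppa4 ran from -3.08 ± 0.14 (T+CD24low D2) to -3.26 ± 0.14 (F+CD24high D4), a fold of 8.47 to 9.61, with adjusted p at most 8.92e-08. Each gene has a second single-symbol probe set of lower mean. The second probe sets of Dppa2 and Dppa4 are numbered next to each other on the array, and 9 of the 10 named probe sets nearest in number belong to the chromosome of the gene in RefSeq. For the probe sets of higher mean this was 0 of 10 for either gene, against 8 to 10 of 10 for the other 6 genes, and whether they read a copy of the genes elsewhere was not tested. On the second probe set Dppa2 read 10.42 and 10.66 in mESC and 4.87 to 5.95 in sorted cells, and Dppa4 read 10.06 and 10.19 against 4.42 to 6.08. On this probe set the log2 fold changes of Dppa4 ran from -4.43 to -5.48 in place of -3.08 to -3.26, and both genes were called lower in all 7 groups.

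Among the sorted groups no comparison of Dppa4 was called, on either probe set. On the probe set of higher mean the largest of the differences tested was -0.15. On the second, the arrays of T+CD24low D2 (6.08 and 5.32) lay above those of F+CD24low D2 (4.90 and 5.16) and of T+CD24low D4 (5.06 and 4.61), with a difference of -0.67 (adjusted p = 0.308) and -0.87 (adjusted p = 0.0755). Dppa2 was lowest in F+CD24high D4 (6.78 and 6.56), below all other sorted arrays. It was called lower there than in T+CD24neg D4 (-1.49 ± 0.33, adjusted p = 0.00712). Without F+CD24high D4 replicate 2 that call was lost (-1.38, adjusted p = 0.0552), as it was without T+CD24neg D4 replicate 2 (-1.28, adjusted p = 0.0683), and on the second probe set the difference was -0.91. The arrays of F+CD24high D2 disagreed most, at 6.83 and 8.24.

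Of 6 genes measured that are known to need Dppa2 and Dppa4 for their expression, Mael and Dppa3 were called lower in all 7 sorted groups. Mael, a piRNA pathway gene, changed by -2.97 to -2.74, and Dppa3, a maternal and germ cell factor, by -2.23 to -1.43. Syce1, a meiotic gene, lay between -0.97 and -0.85 and was not called, and Nkx2-5, Tcstv3 and Zfp352 lay between -0.05 and 0.28. In mESC, Tcstv3 stood at 5.12, Zfp352 at 5.98 and Syce1 at 6.56, below the median of the probe sets, so that little room was left to measure a fall, and Nkx2-5 stood at 8.37.

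Pou5f1 and Nanog were not called different from mESC in the CD24low gates of either lineage. Both fell in F+CD24high D4 and T+CD24neg D4, and Pou5f1 fell in F+CD24high D2 as well. Pou5f1 read 12.47 and 12.59 in mESC, 12.69 and 12.82 in F+CD24low D2, 12.72 and 12.52 in F+CD24low D4, and 12.78 and 12.68 in T+CD24low D2. These 4 groups overlapped as neighbours in the order of means. Below them, without overlap between neighbours, came T+CD24low D4 (11.94 and 12.13), T+CD24neg D4 (11.24 and 11.22), F+CD24high D2 (10.84 and 10.27) and F+CD24high D4 (7.79 and 8.71).

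Nanog, the homeodomain factor of the network, followed a similar order over a smaller range. It read 12.01 and 12.16 in mESC and, on the CD24low arrays of D2, 12.51 and 12.49 in Foxa2+ and 12.31 and 12.31 in T+ cells. At D4 the CD24low arrays read 12.28 and 12.34 in Foxa2+ and 11.73 and 11.85 in T+ cells. The lowest arrays were those of F+CD24high D2 (11.17 and 11.07), T+CD24neg D4 (10.83 and 11.00) and F+CD24high D4 (9.39 and 9.78), in that order and without overlap.

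Against mESC, Pou5f1 was called lower in F+CD24high D2 (-1.98 ± 0.25, adjusted p = 0.000126), F+CD24high D4 (-4.28 ± 0.25, adjusted p = 1.77e-07) and T+CD24neg D4 (-1.30 ± 0.25, adjusted p = 0.00281). Nanog was called lower in F+CD24high D4 (-2.50 ± 0.12, adjusted p = 5.08e-08) and T+CD24neg D4 (-1.17 ± 0.12, adjusted p = 3.43e-05). In F+CD24high D2 Nanog missed the fold threshold (-0.96 ± 0.12, adjusted p = 0.000138), and it passed without mESC replicate 1 (-1.03) or F+CD24high D2 replicate 1 (-1.01). In F+CD24low D4, the 95% interval of the difference from mESC was -0.45 to 0.63 for Pou5f1 and -0.04 to 0.50 for Nanog, so that a fall of more than 1 log2 unit lay outside both. In T+CD24low D4 the interval was -1.04 to 0.05 for Pou5f1, which reaches such a fall, and -0.56 to -0.03 for Nanog. In F+CD24low D2 Nanog was higher than in mESC by the p threshold alone (0.42 ± 0.12, adjusted p = 0.0399).

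Sox2 fell in every sorted group, in steps. It read 11.94 and 12.31 in mESC and, in the CD24low gates at D2, 11.11 and 11.04 (Foxa2+) and 11.00 and 10.90 (T+). At D4 the CD24low arrays read 11.13 and 10.93 (Foxa2+) and 10.33 and 10.50 (T+). T+CD24neg D4 followed at 8.88 and 9.07, then F+CD24high D2 at 7.89 and 7.95 and F+CD24high D4 at 7.01 and 7.37. No sorted array reached an mESC array, the F+CD24low groups and T+CD24low D2 overlapped as neighbours, and all later steps were free of overlap.

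The log2 fold changes of Sox2 against mESC were -1.05 ± 0.15 in F+CD24low D2, -1.10 ± 0.15 in F+CD24low D4 and -1.17 ± 0.15 in T+CD24low D2. All 3 lay close to the threshold and lost their call without mESC replicate 2 (-0.86, -0.91 and -0.99), as did F+CD24low D4 without its own replicate 2 (-0.997). Sox2 stood at -1.71 ± 0.15 in T+CD24low D4, -3.15 ± 0.15 in T+CD24neg D4, -4.20 ± 0.15 in F+CD24high D2 and -4.93 ± 0.15 in F+CD24high D4. The last value is a fold of 30.5, and its adjusted p was 1.91e-09.

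Utf1 differed between the CD24low populations of the lineages. It read 12.71 and 12.88 in mESC, 12.39 and 12.53 in F+CD24low D2 and 12.61 and 12.81 in F+CD24low D4. In T+CD24low it read 10.76 and 10.46 at D2 and 10.25 and 10.67 at D4. The F+CD24low D4 arrays overlapped with those of mESC, while all 4 arrays of T+CD24low lay more than 1 log2 unit below every array of F+CD24low.

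Utf1 was lowest in F+CD24high D2 (9.59 and 8.60), F+CD24high D4 (9.35 and 9.57) and T+CD24neg D4 (9.12 and 9.20). Against mESC it was not called in F+CD24low (-0.33 ± 0.26 at D2 and -0.09 ± 0.26 at D4, adjusted p = 0.457 and 0.859). It was called lower in T+CD24low, by -2.18 ± 0.26 at D2 and -2.34 ± 0.26 at D4. In the remaining gates its changes were -3.70 ± 0.26 (F+CD24high D2), -3.34 ± 0.26 (F+CD24high D4) and -3.64 ± 0.26 (T+CD24neg D4).

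Sall4 and Lin28a stayed within 0.56 log2 units of mESC in the means of all groups. Sall4 read 12.11 and 12.22 in mESC and between 12.16 and 12.73 on the sorted arrays. Lin28a read 10.62 and 10.82 in mESC and between 10.62 and 11.26 in sorted cells. Neither gene was called in any of the 7 comparisons, in which Sall4 changed by 0.05 to 0.56 and Lin28a by 0.03 to 0.42.

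For Sall4 the difference from mESC passed the p threshold, but not that of the fold, in F+CD24high D2 (0.52 ± 0.09, adjusted p = 0.00136) and D4 (0.56 ± 0.09, adjusted p = 0.000583), where all 4 arrays (12.71, 12.67, 12.73 and 12.72) lay above every other array. The 95% interval in F+CD24high D4 was 0.36 to 0.76 for Sall4 and -0.17 to 0.32 for Lin28a, so that a fall like that of Pou5f1 in the same cells was outside both. Sall4 also passed the p threshold alone in T+CD24low D4 (0.30, adjusted p = 0.0362) and T+CD24neg D4 (0.32, adjusted p = 0.0269). Lin28a did so in F+CD24high D2 (0.42, adjusted p = 0.0176), T+CD24low D2 (0.38, adjusted p = 0.041), T+CD24low D4 (0.39, adjusted p = 0.0285) and T+CD24neg D4 (0.39, adjusted p = 0.031). Lin28a was highest in F+CD24high D2 (11.26 and 11.01), a group that overlapped with the T+ groups.

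Within one day, the same 4 genes were lower in CD24high than in CD24low Foxa2+ cells at D2 and at D4. At D2, 4 of 8 genes were called lower, against 1.62% of probe sets called lower. The changes were -2.20 ± 0.25 for Pou5f1, -1.38 ± 0.12 for Nanog, -3.16 ± 0.15 for Sox2 and -3.37 ± 0.26 for Utf1. At D4, 4 of 8 were called lower, against 2.69%. There the changes were -4.37 ± 0.25 for Pou5f1, -2.73 ± 0.12 for Nanog, -3.84 ± 0.15 for Sox2 and -3.25 ± 0.26 for Utf1. For these 4 genes, every CD24high array lay below every CD24low array of the same day, and adjusted p was at most 0.000145.

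The step from CD24low to CD24-negative in T+ cells at D4 was smaller. There 2 of 8 genes were called lower, against 0.778% of probe sets, namely Sox2 (-1.44 ± 0.15, adjusted p = 0.000239) and Utf1 (-1.30 ± 0.26, adjusted p = 0.0167). Without T+CD24low D4 replicate 2, T+CD24neg D4 replicate 1 or T+CD24neg D4 replicate 2 the call of Utf1 was lost (-1.09, -1.26 and -1.34). Nanog (-0.87 ± 0.12, adjusted p = 0.00181) and Pou5f1 (-0.80 ± 0.25, adjusted p = 0.126) were not called. Their T+CD24neg arrays nevertheless all lay below the T+CD24low arrays.

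**Figure D3:**
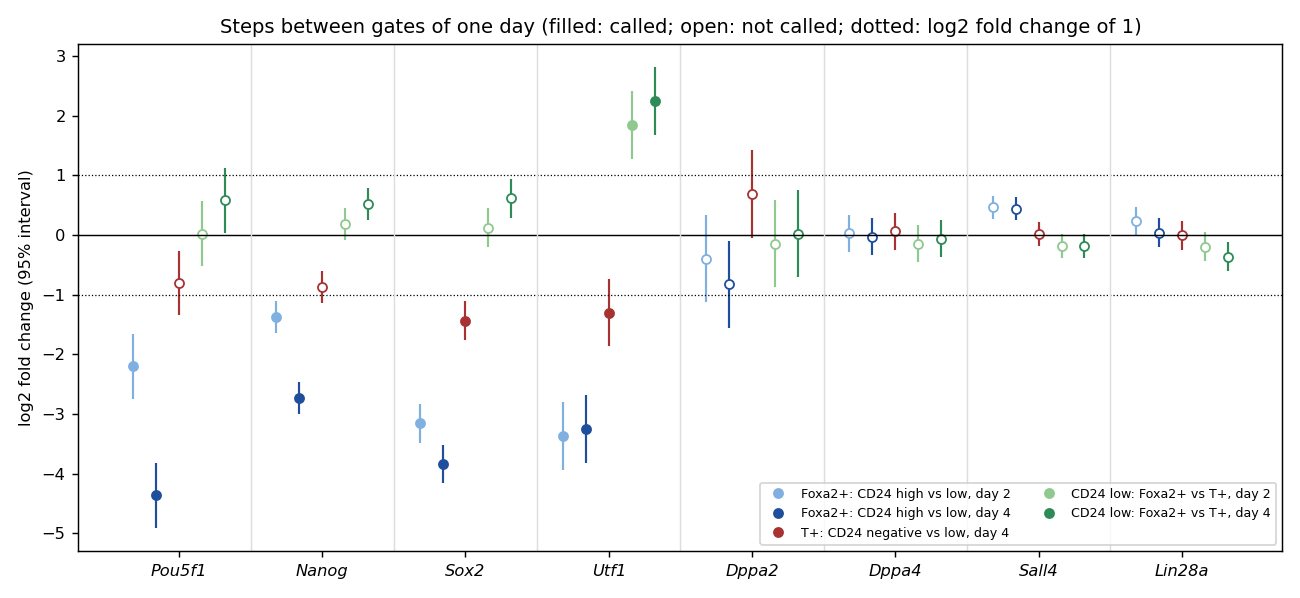
Log2 fold change (y axis, with 95% intervals from limma) of the 8 genes (x axis) between gates of one day, for CD24high against CD24low in Foxa2+ cells at D2 and D4, CD24-negative against CD24low in T+ cells at D4, and F+CD24low against T+CD24low at D2 and D4. Filled points were called. The Foxa2+ step was below -1 for Pou5f1, Nanog, Sox2 and Utf1, and Utf1 alone was called between lineages in the CD24low gate, at 1.85 and 2.25.

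In the CD24low gate, Utf1 was the 1 gene of the 8 called between Foxa2+ and T+ cells. At D2, 1 of 8 was called higher in Foxa2+ cells, against 0.447% of probe sets called higher, and this was Utf1 with 1.85 ± 0.26 (adjusted p = 0.00271). At D4, 1 of 8 was called higher, against 1.53%, again Utf1 with 2.25 ± 0.26 (fold 4.77, adjusted p = 0.000132). Pou5f1, Nanog and Sox2 differed by 0.02, 0.19 and 0.13 at D2 and by 0.58, 0.53 and 0.61 at D4. Of these, Nanog (adjusted p = 0.0177) and Sox2 (adjusted p = 0.0222) passed the p threshold at D4 but not that of the fold.

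Between the late populations at D4, 4 of 8 genes were called lower in F+CD24high than in T+CD24neg, against 2.96% of probe sets called lower. Beside Dppa2, these were Pou5f1 (-2.98 ± 0.25, adjusted p = 4.38e-06), Nanog (-1.33 ± 0.12, adjusted p = 9.58e-06) and Sox2 (-1.79 ± 0.15, adjusted p = 4.28e-06). Utf1 did not differ beyond the threshold (0.30 ± 0.26, adjusted p = 0.516). This contrast also changes the CD24 gate and the medium.

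From D2 to D4, no gene was called in F+CD24low cells. There limma called 0 of 8, against 0.294% of probe sets, 0 of 8 had an unadjusted p below 0.05, and limma's treat test against a log2 fold change of 1 also called 0. In F+CD24high cells, 2 of 8 were called lower at D4, against 0.500% of probe sets called lower, namely Pou5f1 (-2.30 ± 0.25, adjusted p = 0.000314) and Nanog (-1.54 ± 0.12, adjusted p = 4.18e-05). With only the 4 arrays compared in the model, both calls were lost (adjusted p = 0.0916 and 0.0547). Sox2 changed by -0.73 ± 0.15 (adjusted p = 0.0137) and Utf1 by 0.36 ± 0.26. In T+CD24low cells 0 of 8 were called by limma or by treat, against 1.79% of probe sets, although 3 had an unadjusted p below 0.05, among them Nanog (-0.52 ± 0.12, adjusted p = 0.0257).

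The differences between these steps were tested in the same model. The Foxa2+ CD24 step was larger at D4 than at D2 for 2 of 8 genes, against 0.381% of probe sets called lower. The difference was -2.17 ± 0.35 for Pou5f1 (adjusted p = 0.0132) and -1.35 ± 0.17 for Nanog (adjusted p = 0.00368). The call of Pou5f1 was lost without F+CD24low D2 replicate 1 (adjusted p = 0.0614) or F+CD24low D4 replicate 1 (adjusted p = 0.0657). For Sox2 (-0.68 ± 0.21, adjusted p = 0.204) and Utf1 (0.11 ± 0.37, adjusted p = 0.957) the step was not called different between the days.

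At D4, the CD24 step of Foxa2+ cells exceeded that of T+ cells for 4 of 8 genes, against 3.12% of probe sets called lower. The difference was -3.56 ± 0.35 for Pou5f1 (adjusted p = 6.18e-05), -1.85 ± 0.17 for Nanog (adjusted p = 4.34e-05), -2.40 ± 0.21 for Sox2 (adjusted p = 2.94e-05) and -1.95 ± 0.37 for Utf1 (adjusted p = 0.00415). Dppa2 lay at the threshold (-1.51 ± 0.47, adjusted p = 0.0578). It was called with only the 4 groups compared in the model (adjusted p = 0.00421), with array weights (0.0181), with the 16000 probe sets of highest mean (0.0339), with the replicate block (0.0367), without either F+CD24high D2 array (0.00123), on the mean of its probe sets (-1.33, 0.0407) and on the second probe set (-1.14, 0.0289), and the adjusted p of the other alternatives ran from 0.0578 to 1. The lineage difference of the CD24low gates did not change from D2 to D4 by a called amount for any gene, with 0 of 8 called by limma or treat, against 1.38% of probe sets, and 1 with an unadjusted p below 0.05.

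Correlations of the 8 genes over the 16 arrays are given as descriptions, since the arrays come in 8 groups of 2 and share their normalization. Pou5f1 and Nanog were most alike (r = 0.975), then Dppa2 and Dppa4 (r = 0.962), Pou5f1 and Sox2 (r = 0.915) and Nanog and Sox2 (r = 0.901). Utf1 was nearest to Sox2 (r = 0.850). Sall4 ran opposite to Sox2 (r = -0.919) and to Utf1 (r = -0.879), over a range of 0.56 log2 units between its group means.

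**Figure D4:**
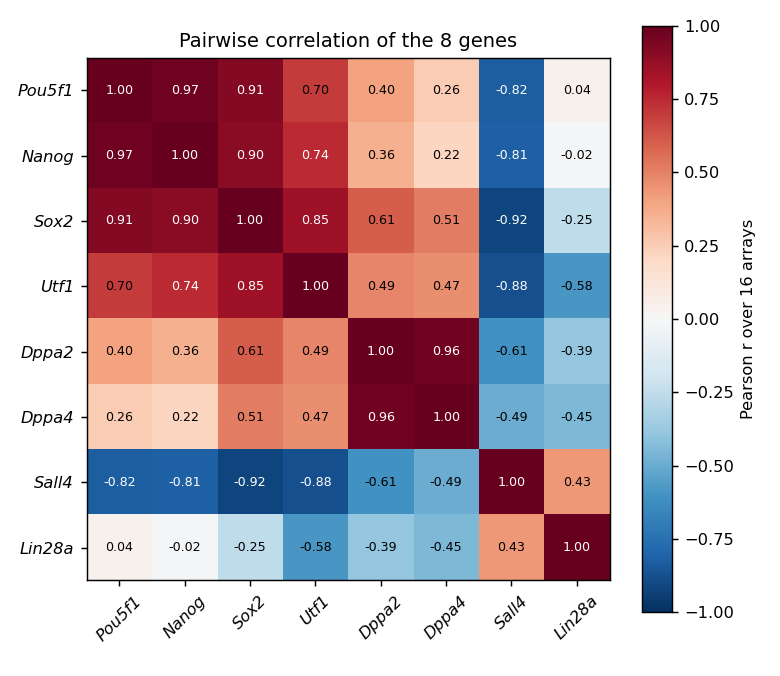
Pearson correlation (colour and printed value) of the log2 values of each pair of the 8 genes over the 16 arrays. Pou5f1, Nanog, Sox2 and Utf1 correlate positively with each other (0.70 to 0.97), Dppa2 with Dppa4 at 0.96, and Sall4 negatively with all of the other genes except Lin28a.

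Among 3784 genes whose group means spanned at least 1 log2 unit, the 3 closest to each of the 8 were listed. Nearest to Pou5f1 were Nanog, Jade2 (r = 0.970) and Hmgxb4 (r = 0.970). Nearest to Nanog were Pou5f1, Phc1, a Polycomb subunit (r = 0.960), and Hmgxb4 (r = 0.954). Nearest to Sox2 were Prelid3a (r = 0.984), Resf1 (r = 0.979) and Rif1, a telomere and replication timing factor (r = 0.973). Nearest to Utf1 were Map7d2 (r = 0.961), Enpp3 (r = 0.959) and Pipox (r = 0.956).

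Nearest to Dppa2 were Ebf1 (r = 0.982), Lncenc1, a non-coding RNA of mESCs (r = 0.978), and Dnmt3l, a cofactor of de novo DNA methylation (r = 0.974). Nearest to Dppa4 were Grem1, a secreted BMP antagonist that fibroblasts also make (r = 0.997), Ccdc141 (r = 0.996) and Emp1 (r = 0.994), all high only in mESC. The second probe sets gave other neighbours, namely Irak3 (r = 0.989), Sycp3, a gene of the meiotic chromosome axis (r = 0.987), and the other probe set of Dppa4 (r = 0.986) for Dppa2, and Lyz2 (r = 0.986), Sycp3 (r = 0.983) and Nexmif (r = 0.981) for Dppa4. Nearest to Sall4 were Tnnt3 (r = 0.946), Tnrc18 (r = 0.934) and Lgalsl (r = 0.930), and nearest to Lin28a were Axin2, a Wnt target (r = 0.914), Khnyn (r = 0.851) and Rab11fip1 (r = 0.832).

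Genes of naive pluripotency fell in every sorted group, as Dppa2 and Dppa4 did. Of 15 genes of naive pluripotency, 13 to 15 were called lower in every sorted group than in mESC, against 2.47% to 5.19% of probe sets. Their medians were -2.63 to -1.99. In F+CD24high D4 the largest falls were Dppa5a (-6.73), Zfp42, a zinc finger factor of naive cells (-4.48), Nr0b1 (-3.96) and Nr5a2 (-3.62). Between F+CD24high and F+CD24low at D2, where Pou5f1, Nanog, Sox2 and Utf1 fell, 0 of the 15 were called by limma and 1 had an unadjusted p below 0.05. Of all probe sets, 1.62% were called lower in this comparison. In F+CD24low D2 all 15 were already called lower than in mESC. Their mean log2 value there was 7.61 and 7.53, near the array medians of 7.42 to 7.49. Room to measure a further fall was therefore limited. Exceptions that rose against mESC were Prdm14 in T+CD24low D4 (1.31) and Tbx3 in T+CD24neg D4 (1.80).

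Of 14 genes of formative and primed pluripotency, 1 was called higher and none lower in F+CD24low D2, F+CD24low D4 and T+CD24low D2 compared with mESC, and this was Fgf5, the growth factor of the epiblast (1.96, 1.79 and 1.22). Of all probe sets, 1.18%, 1.80% and 1.49% were called higher in these comparisons. In T+CD24low D4, 7 of the 14 were called lower (against 3.20% of probe sets), led by Otx2 (-2.32), Foxd3 (-1.77), Tdgf1 (-1.56) and Zic5 (-1.43). The same number was called lower than in mESC in F+CD24high D4 (against 5.19%) and T+CD24neg D4 (against 3.43%). In F+CD24high D2, 4 were called lower (against 4.40%). Called higher were 2 in F+CD24high D4 (against 3.57%), 1 in T+CD24neg D4 (against 2.23%) and 2 in F+CD24high D2 (against 2.25%). Between the CD24low gates at D4, 7 of 14 were higher in Foxa2+ cells (against 1.53%), among them Otx2 (3.18), Fgf5 (3.11), Foxd3 (1.74) and Dnmt3b (1.70). At that day Utf1 was likewise higher in Foxa2+ cells. At D2, 0 of the 14 were called between these gates (5 with an unadjusted p below 0.05), whereas Utf1 already was. Of all probe sets, 0.447% were called higher there. In F+CD24high D4 against F+CD24low D4, 6 of 14 were lower (against 2.69%), led by Lef1 (-2.84), Tdgf1 (-1.96), Zic5 (-1.89) and Sox11 (-1.88), and Otx2 was higher (1.13).

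Genes of proteins that bind Pou5f1 and Nanog, such as NuRD and BAF subunits, were mostly not called where Pou5f1 and Nanog fell. Most probe sets at large were not called there either. In F+CD24high D4 against mESC, 5.19% of probe sets were called lower and 3.57% higher, and in T+CD24neg D4 3.43% and 2.23%. Of 19, in F+CD24high D4 against mESC 2 were called lower, L1td1, an RNA-binding protein of pluripotent cells (-3.24), and Rif1 (-1.08), and 1 higher, Arid3b (1.11). The median of the 19 there was -0.28, against 0.07 for all probe sets, and 13 had an unadjusted p below 0.05 in limma. In T+CD24neg D4, L1td1 (-2.22) and Arid3b (1.75) were called, and 8 of the 19 had an unadjusted p below 0.05 in limma. Zfp281, a repressor in the Nanog complex, stood at -0.98 in F+CD24high D4 and was not called.

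Of 15 genes of the Lin28 and let-7 pathway, 3 were called lower in F+CD24high D4 than in mESC (against 5.19% of probe sets), where Lin28a was not. These were Myc (-1.39), Lin28b, the paralogue of Lin28a (-1.28), and Mycn (-1.07), and Arid3b was higher. In T+CD24neg D4, 5 were higher (against 2.23% of probe sets) and none lower (against 3.43%). The higher ones were led by Arid3b (1.75), Tut4, a uridylyltransferase that acts with Lin28 (1.52), and Arid3a (1.21). A further list held 18 genes that share a family with the 8 genes or, as Dppa3 and Dppa5a, only the Dppa name. Of these, 6 were called lower in F+CD24high D4 (against 5.19%), led by Dppa5a, Dppa3 (-1.99), Sox15 (-1.63) and Sall2 (-1.39). In T+CD24neg D4, 4 were called lower (against 3.43%), Dppa5a (-4.13), Dppa3 (-2.23), Sox15 (-1.40) and Pou3f1 (-1.01), and 1 higher (against 2.23%), Sall3 (1.65).

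Some of the germ cell genes listed were higher on the T+CD24low D4 arrays. Of 11 germ cell genes, 5 were called higher there than in mESC (against 2.26% of probe sets) and 2 lower (against 3.20%). Compared with T+CD24low D2, 4 were called higher (against 1.05%), led by Kit (2.24), Prdm14 (1.56), Prdm1 (1.16) and Ifitm1 (1.08). The summed linear level of the list was 21100 and 24048 on these arrays and 3446 to 13719 on the other sorted ones. Nanos3, Dazl and Ddx4, of the same list, did not rise by a called amount, and Ddx4 stood at -3.15 against mESC. Dppa3, also of this list, was called lower than in mESC on these arrays, as in every sorted group. Pou5f1 and Nanog are also germ cell genes, and the part of such cells in their values in this gate was not tested. Of 10 neural progenitor genes, 0 to 3 were called in each comparison with mESC, where 1.18% to 3.57% of probe sets were called higher and 2.47% to 5.19% lower. Fabp7 and Nes moved most, and Sox1, the early neural relative of Sox2, lay between -0.14 and 0.09.

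**Figure D5:**
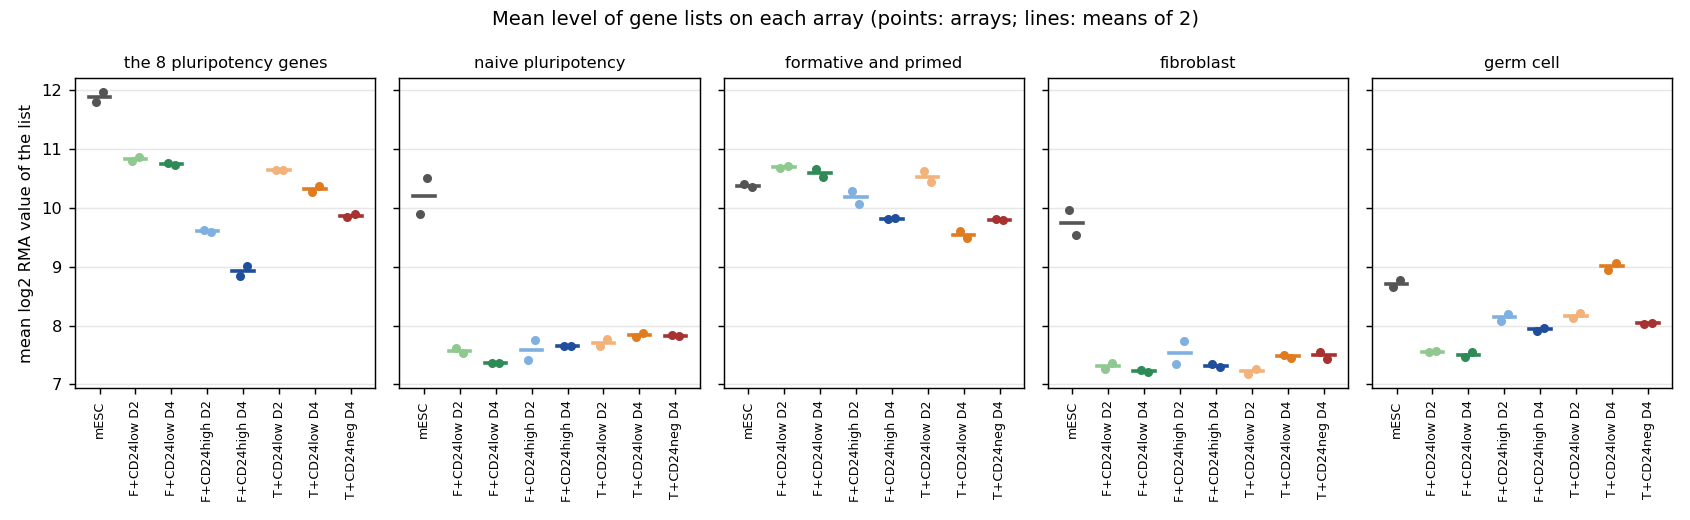
Mean log2 RMA value (y axis) of the 8 pluripotency genes, 15 naive, 14 formative and primed, 18 fibroblast and 11 germ cell genes on each array (points) of the 8 groups (x axis), with lines at the mean of 2 arrays. The naive and fibroblast lists stand high only in mESC, the formative list is lowest in T+CD24low D4, and the germ cell list is highest there.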

How the data were processed

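Expression in 16 samples was measured with the Mouse Gene ST 1.0 array of Affymetrix. The authors normalized all arrays together by RMA with oligo 1.48.0 and deposited a log2 value for each of 35556 probe sets, and these deposited log2 values were used unchanged. RMA brings arrays to 1 distribution, which hides any change in the RNA content of a cell and compresses low values. As in the methods of the study, the 32000 probe sets of highest mean were kept. The model was fitted in limma 3.58.1 under R 4.3.3 (a mean per group over all 16 arrays, contrasts, eBayes without trend), with Benjamini-Hochberg adjustment per comparison over 19 comparisons. Of the probe sets kept, 20427 carried 1 gene symbol, 1400 several and 10173 none. A gene was read from its single-symbol probe set of highest mean. The genome build behind the probe sets is not given in the sources used here.

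Groups came from the sample labels. The 8 genes and the lists (naive, formative and primed, partner proteins, relatives by family or name, Lin28 and let-7, genes that need Dppa2 and Dppa4, germ cell, neural, fibroblast, endoderm and mesoderm) were chosen with earlier results of these data known. All 8 genes are named, with the 3 genes of highest correlation to each and up to 4 called genes of largest change per list. The test was checked on simulated data. Each group had only 2 arrays, which limits precision. The p-values rest on the spread between these samples, pooled over the 8 groups and moderated by eBayes, not on the groups compared alone. Alternatives covered the filter, the normalization, array weights, the prior, the thresholds, the arrays fitted, the probe set, a replicate block and leaving out each array. T was not analysed here.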

Additional observations from a re-analysis of the deposited data

Results flagged for a closer look

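For 6 values, the same step differed between days or lineages by the test of the difference in limma. The CD24high against CD24low step of Foxa2+ cells was more negative at D4 than at D2 by -2.17 log2 units for Pou5f1 (adjusted p = 0.0132) and by -1.35 for Nanog (adjusted p = 0.00368). At D4, the CD24 step of Foxa2+ cells was more negative than that of T+ cells by -3.56 for Pou5f1 (adjusted p = 6.18e-05), -1.85 for Nanog (adjusted p = 4.34e-05), -2.40 for Sox2 (adjusted p = 2.94e-05) and -1.95 for Utf1 (adjusted p = 0.00415). The steps compared at D4 end in different gates, CD24high in Foxa2+ and CD24-negative in T+ cells.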

How the results depend on the processing

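Across 28 alternatives, 517 of 532 counts of called genes stayed within 1.5 times of the reported count, and of 4237 single values 31 lost a call, 29 gained one and 0 turned a called direction. With only the arrays of the groups compared, the D2 to D4 count of F+CD24high went from 2 to 0, and that for the change of the Foxa2+ CD24 step from 2 to 1. With adjusted p alone, the counts rose to 8 in F+CD24high D2 against mESC, to 3 between the CD24low gates at D4 and to 1 from D2 to D4 in T+CD24low. With treat against a log2 fold change of 1, they fell to 0 between the CD24low gates at D2, to 2 between F+CD24high D4 and T+CD24neg D4, to 0 in the T+ CD24 step, to 0 from D2 to D4 in F+CD24high and to 0 for the change of the Foxa2+ CD24 step. Without 1 array, counts ranged from 1 to 2 for the T+ CD24 step and from 1 to 2 for the change of the Foxa2+ CD24 step. The main model did not pair samples by replicate number. Deviations of same-numbered arrays correlated at -0.20 to 0.25, and over 0.1 in 8 of 28 pairs of groups. These values do not settle whether some groups were paired. The fit with the replicate block changed 1 call, that of Dppa2 in the difference of the CD24 steps at D4 (-1.51, adjusted p = 0.0367). Dppa2 on F+CD24high D2 arrays rested on the array used, with -1.10 against F+CD24low D2 without replicate 2 and 0.31 without replicate 1. The causes of these changes were not tested. The second probe set of Dppa2 and Dppa4 was added after seeing the data, and low signal limits how far the fall of both can be measured.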
